A study of Sus scrofa with 8 samples.

Results

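The genes described here are those of the swine leukocyte antigen (SLA) class II region, the pig's major histocompatibility complex class II genes, together with CD74, which encodes the invariant chain. They were taken as every non-control probe of a porcine Agilent array whose RefSeq transcript maps to a pig symbol starting with SLA-D, or to CD74. That rule gave 9 genes, of 2389 with a symbol on the array, and 32 probes, of 43603 in all. The classical chains had 22 probes: 7 for SLA-DRA, 4 for SLA-DRB1, 7 for SLA-DQA1 and 4 for SLA-DQB1. The non-classical chains SLA-DMA, SLA-DMB, SLA-DOA and SLA-DOB had 2 probes each, and CD74 had 2.

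The study measured gene expression in whole blood of 8 female pigs (Sus scrofa), drawn 14 days after insemination from sows of the fifth parity. Pregnant sows made up 1 group (n = 4) and non-pregnant sows the other (n = 4), and each sow had 1 single-colour (Cy3) array. The design text speaks of half-sib pairs and an unrelated pair, but the labels do not say which sows formed a pair, and they name neither breed nor age. Whole blood is a mixture of cells, so that fewer cells of a type and less RNA per cell cannot be told apart.

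Class II molecules are pairs of an alpha and a beta chain that carry peptides from engulfed proteins to the surface of B cells, monocytes and dendritic cells, where CD4+ T cells read them. DR and DQ are the classical pairs that present peptide at the surface, and their chains are known for many alleles. The invariant chain CD74 occupies the groove of newly made pairs and guides them to the endosome. There the DM pair exchanges the remaining fragment of the invariant chain for peptide, and the DO pair restrains DM, mainly in B cells. In pigs, some T cells also carry class II molecules.

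In the name table of the Sscrofa11.1 assembly, used only for names and gene order, the 8 SLA genes lie in 1 chromosomal region. Their order is DRA, DRB1, DQA1, DQB1, DOB, DMB, DMA and DOA, with 4 class II pseudogenes among them, and CD74 lies on another chromosome. Classical chains and their pseudogenes are near-identical in part, and sows can carry different alleles. A probe's signal may therefore hold a related gene or depend on the allele, which was not tested.

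Over the 26480 probes tested, the correlation between any 2 of the 8 arrays lay between 0.870 and 0.984. Pregnant replicate 2 stood apart: without it the lowest r was 0.946, and its 75th percentile of signal was 142, against 176 to 297 on the others. Replicates 1 and 3 of both groups shared slide 1, and replicates 2 and 4 shared slide 2. Levels are given as the log2 processed signal minus the array's 75th percentile, so that 0 is the brightness of that percentile and 1 unit is a 2-fold difference. All 32 member spots were well above background on each of the 8 arrays, and 0 were saturated. Levels of different probes are not comparable, so values are set against each other only within a probe.

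None of the class II probes differed between pregnant and non-pregnant sows beyond the spread between sows. Of the 31 probes tested, limma called 0 after Benjamini-Hochberg adjustment over all 26480 probes, where 0% of all probes were called. At an unadjusted p under 0.05 there were 0 of the 31, where 2.29% of all probes had such a p. The groups overlapped at all 32 probes, while they did not overlap in 1.58% of all probes tested. Of the 31 log2 fold changes 29 were negative (lower in pregnant sows), against 56.6% of all probes tested. With normexp background correction this turned to 2 of 31, and with plain background subtraction it stayed at 29. The normexp fit was uneven: it left median intensities of 96.4 to 847 on pregnant and 184.5 to 965 on non-pregnant arrays. After subtraction alone the medians lay between 28 and 45. The count of negative log2 fold changes was 18 of 31 without pregnant replicate 2 and 19 of 31 without non-pregnant replicate 1. The median log2 fold change was -0.15 over the members and -0.043 over all probes tested. Probes of 1 gene share a target, and all probes share the same 8 sows, so these counts are not independent observations.

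**Figure D1:**
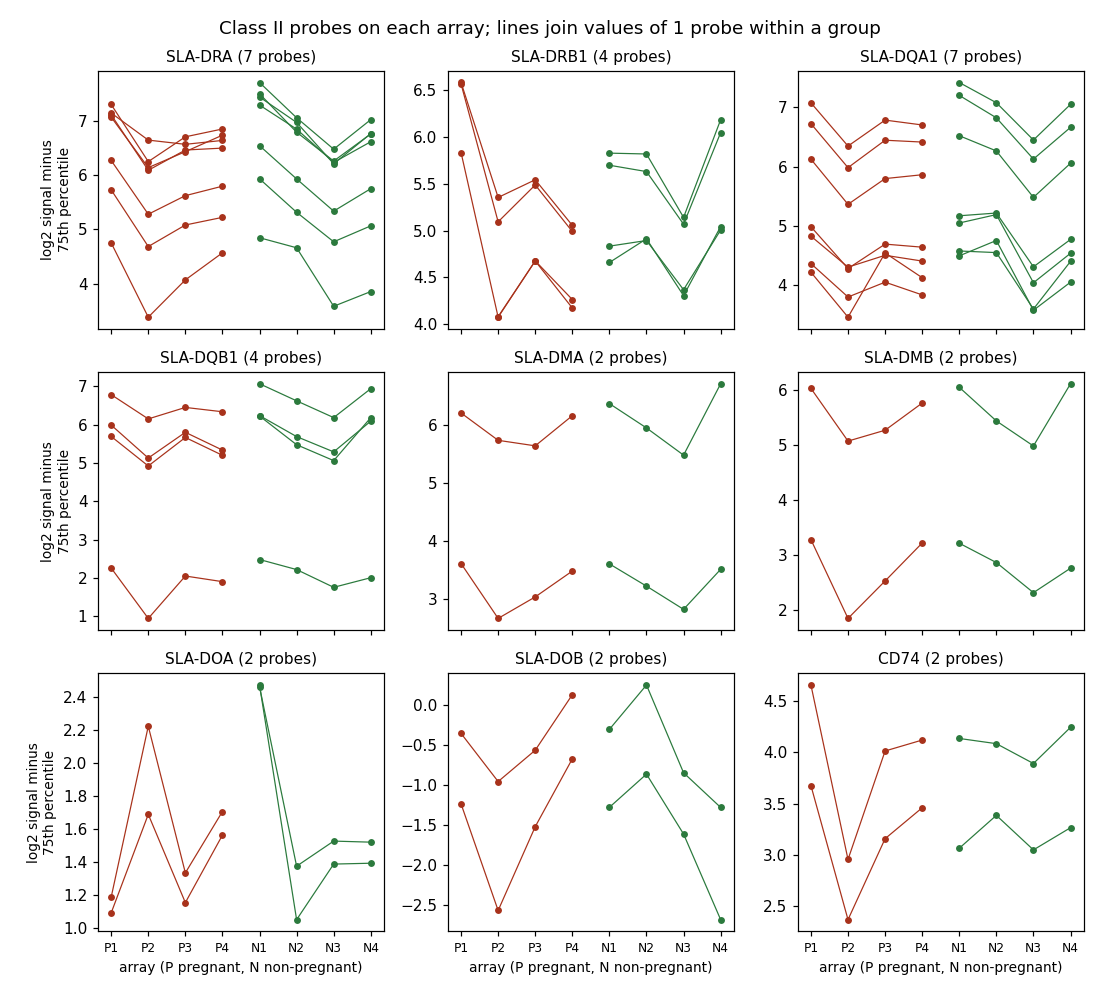
Each panel shows 1 gene, with the arrays on the x axis and the log2 signal relative to the array's 75th percentile on the y axis. Points are single arrays and lines join the values of 1 probe within a group (red pregnant, green non-pregnant). Pregnant replicate 2 is low at most classical probes and non-pregnant replicate 1 is high, and the groups overlap in every panel.

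Among the classical chains, SLA-DRA encodes the alpha chain of DR, which pairs with the DRB chains. At its brightest probe, A_72_P176171, the levels were 7.30, 6.25, 6.70 and 6.85 in pregnant replicates 1 to 4, and 7.70, 7.05, 6.47 and 7.02 in non-pregnant replicates 1 to 4. Non-pregnant replicate 1 was the highest sow and pregnant replicate 2 the lowest, and the remaining values of both groups lay interleaved. The mean was 6.77 ± 0.43 in pregnant and 7.06 ± 0.50 in non-pregnant sows (SD, n = 4 each). The log2 fold change was -0.29 (SE 0.33, limma adjusted p = 0.99999), or 0.818 times the non-pregnant level. The other 6 SLA-DRA probes had log2 fold changes between -0.29 and -0.043. The 7 probes followed each other from sow to sow, with Pearson r from 0.766 to 0.994 in their 21 pairs over the 8 arrays.

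SLA-DRB1 encodes the beta chain that pairs with DRA, and its order of sows was different. At its brightest tested probe, A_72_P545751, the levels were 6.58, 5.35, 5.54 and 5.06 in pregnant replicates 1 to 4, and 5.83, 5.82, 5.14 and 6.18 in non-pregnant replicates 1 to 4. Pregnant replicate 1 was the highest of all 8 sows and pregnant replicate 4 the lowest, so that the pregnant group spanned the whole range. Its mean was 5.63 ± 0.66 against 5.74 ± 0.44 in non-pregnant sows (SD, n = 4 each), a log2 fold change of -0.11 (SE 0.37, limma adjusted p = 0.99999). The other 2 tested probes had -0.076 and -0.063, and the 3 probes correlated at r between 0.935 and 0.989.

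The fourth SLA-DRB1 probe, A_72_P626735, had its spot on pregnant replicate 1 marked as an outlier by the scanner software and was not among the probes tested. Its levels were 4.08, 4.67 and 4.17 in pregnant replicates 2 to 4, and 4.66, 4.91, 4.30 and 5.04 in non-pregnant replicates 1 to 4. With that array left out of the fit, its log2 fold change was -0.42 (SE 0.30, limma unadjusted p = 0.191). The missing array was the highest one at the other 3 probes of the gene. Over the 7 arrays that all 4 probes share, they correlated at r between 0.882 and 0.983.

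SLA-DQA1 encodes the alpha chain of DQ. At A_72_P721473, its brightest probe, the levels were 7.08, 6.35, 6.79 and 6.70 in pregnant replicates 1 to 4, and 7.42, 7.08, 6.45 and 7.05 in non-pregnant replicates 1 to 4. Non-pregnant replicate 1 was again the highest, pregnant replicate 2 the lowest, and non-pregnant replicate 3 next to it. The means were 6.73 ± 0.30 and 7.00 ± 0.40 (SD, n = 4 each), with a log2 fold change of -0.27 (SE 0.28, limma adjusted p = 0.99999). All 7 probes had a negative log2 fold change, from -0.31 to -0.19.

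SLA-DQB1, the beta chain of DQ, gave the lowest fold change of the members. At its brightest probe, A_72_P039061, the levels were 6.78, 6.15, 6.45 and 6.34 in pregnant replicates 1 to 4, and 7.07, 6.62, 6.18 and 6.94 in non-pregnant replicates 1 to 4. Of the pregnant sows, 3 lay below 3 of the non-pregnant sows, while pregnant replicate 1 and non-pregnant replicate 3 crossed over. The means were 6.43 ± 0.27 and 6.70 ± 0.39 (SD, n = 4 each), and the log2 fold change was -0.27 (SE 0.28, limma adjusted p = 0.99999). The 4 probes ranged from -0.37 to -0.26, and the lowest, A_72_P585101, corresponds to 0.775 times the non-pregnant level (95% interval 0.462 to 1.30).

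**Figure D2:**
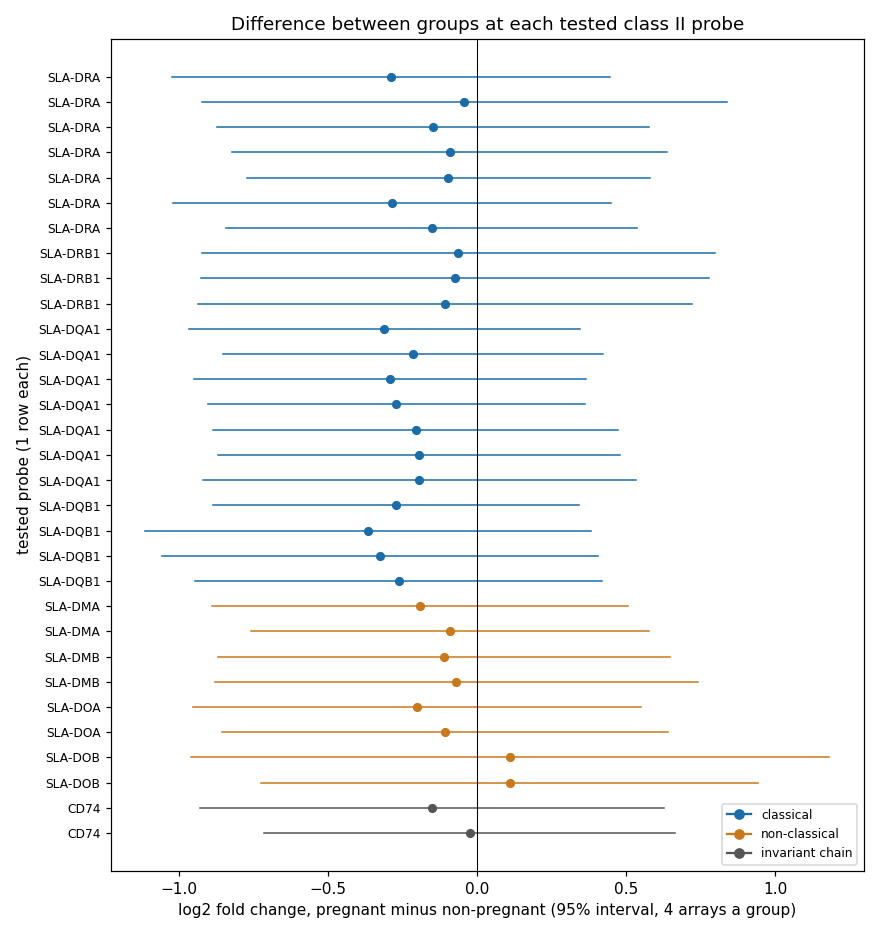
Points are the log2 fold changes of the 31 tested probes, pregnant minus non-pregnant, and bars their 95% intervals from limma, with 1 row a probe. All 21 classical probes lie below 0 and both SLA-DOB probes above it, and every interval includes 0. With normexp background correction these directions turned, while with plain background subtraction they stayed.

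The DM chains, which load peptide, moved together from sow to sow. At the brightest SLA-DMA probe, A_72_P025111, the levels were 6.21, 5.73, 5.64 and 6.16 in pregnant replicates 1 to 4, and 6.37, 5.95, 5.48 and 6.71 in non-pregnant replicates 1 to 4. At the brightest SLA-DMB probe, A_72_P375073, they were 6.04, 5.08, 5.28 and 5.77, and 6.06, 5.45, 4.99 and 6.12, in the same order. At both probes non-pregnant replicate 4 was the highest and non-pregnant replicate 3 the lowest. The log2 fold changes were -0.19 (SE 0.31) for SLA-DMA and -0.11 (SE 0.34) for SLA-DMB, each with a limma adjusted p of 0.99999. The second probes had -0.092 and -0.070. Averaged over the probes of each gene, SLA-DMA and SLA-DMB correlated at r = 0.94 over the 8 arrays.

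The DO chains, which restrain DM, did not follow each other. At the brighter SLA-DOA probe, A_72_P513855, the levels were 1.19, 2.22, 1.33 and 1.71 in pregnant replicates 1 to 4, and 2.46, 1.38, 1.53 and 1.52 in non-pregnant replicates 1 to 4. Non-pregnant replicate 1 and pregnant replicate 2 were the high sows there, and the other 6 lay between 1.19 and 1.71. At the brighter SLA-DOB probe, A_72_P634856, the levels were -0.35, -0.95, -0.56 and 0.13 in pregnant replicates 1 to 4, and -0.30, 0.25, -0.84 and -1.28 in non-pregnant replicates 1 to 4. Pregnant replicate 2, high for SLA-DOA, was the second lowest sow for SLA-DOB. The log2 fold changes were -0.11 (SE 0.34) for SLA-DOA and 0.11 (SE 0.37) for SLA-DOB, both with a limma adjusted p of 0.99999. SLA-DOB was the single gene with positive log2 fold changes (0.11 at both probes), although this turned to -0.20 at the brighter probe with normexp, to -0.14 without non-pregnant replicate 4 and to -0.080 without pregnant replicate 4.

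CD74, the invariant chain, was even among the non-pregnant sows and uneven among the pregnant ones. At its brighter probe, A_72_P223292, the levels were 4.65, 2.96, 4.01 and 4.12 in pregnant replicates 1 to 4, and 4.13, 4.08, 3.89 and 4.24 in non-pregnant replicates 1 to 4. Pregnant replicate 1 was the highest of all sows and pregnant replicate 2 the lowest. The group means were 3.93 ± 0.71 and 4.09 ± 0.15 (SD, n = 4 each), and the second probe gave SDs of 0.57 and 0.16. Without pregnant replicate 2, the median SD of the 2 probes over all arrays left fell from 0.44 to 0.24. The difference in spread between the groups was not tested, since it was noticed in these values. The log2 fold change was -0.15 (SE 0.35, limma adjusted p = 0.99999). It turned to 0.17 when pregnant replicate 2 was left out.

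The difference between the groups was also computed within each slide. Within slide 1 (replicates 1 and 3), 10 of 31 probes were lower in pregnant sows and the median log2 fold change was 0.067. Within slide 2 (replicates 2 and 4), 27 of 31 were lower and the median was -0.49. SLA-DRB1 had log2 fold changes of 0.58 to 0.65 on slide 1 and -0.80 to -0.78 on slide 2. SLA-DOA went the other way, from -0.81 and -0.73 on slide 1 to 0.40 and 0.52 on slide 2. A slide by group term fitted with limma over all probes called 0 of the 31 members, as it called 0% of all probes. At an unadjusted p under 0.05 there were likewise 0 members, where 5.57% of all probes passed. The smallest unadjusted p among the members was 0.0611, at the SLA-DRB1 probe A_72_P079096 (difference between slides -1.44 on the log2 scale, limma adjusted p = 0.913). Each slide held 2 sows of each group, so slide and single sow cannot be told apart.

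**Figure D3:**
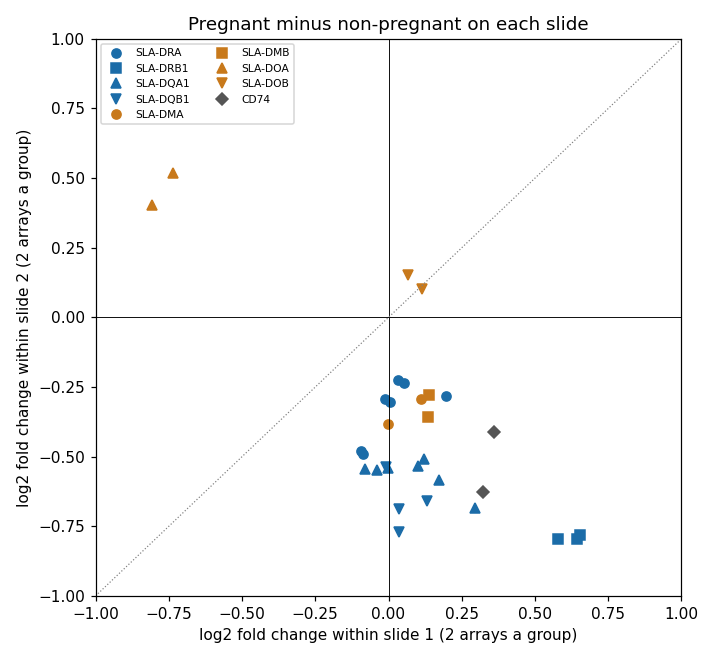
Each point is 1 tested probe, with its log2 fold change (pregnant minus non-pregnant) within slide 1 on the x axis and within slide 2 on the y axis, from 2 arrays a group each. The classical probes lie between -0.092 and 0.65 on slide 1 and between -0.80 and -0.23 on slide 2, and SLA-DRB1 and SLA-DOA lie at opposite corners.

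To compare genes without comparing probe levels, each probe was set relative to its own mean over the 8 arrays and averaged over the tested probes of a gene. By this measure pregnant replicate 2 was low for 8 of the 9 genes, from -0.44 for SLA-DMA to -0.93 for CD74, and high only for SLA-DOA at 0.39. Non-pregnant replicate 3 was below its mean for all 9 genes, from -0.52 for SLA-DMB to -0.11 for SLA-DOA. Non-pregnant replicate 1 was high for SLA-DRA (0.70), SLA-DQB1 (0.56) and SLA-DQA1 (0.49), and highest for SLA-DOA (0.90), while CD74 lay at its mean there (0.0046). Of the 21 classical probes tested, 15 were highest in non-pregnant replicate 1 and 16 lowest in pregnant replicate 2.

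**Figure D4:**
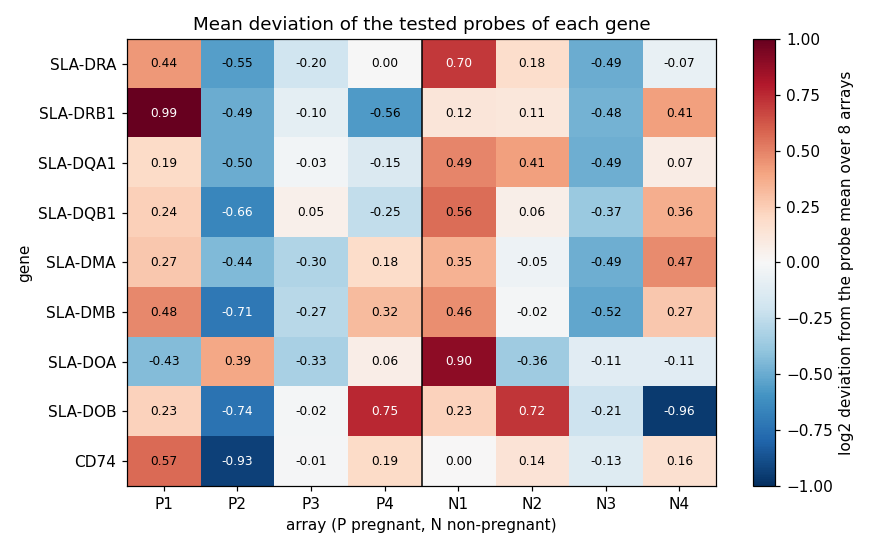
Rows are genes and columns arrays (P pregnant, N non-pregnant), and each cell gives the log2 deviation from the probe's mean over 8 arrays, averaged over the gene's tested probes. Column P2 is negative for all genes but SLA-DOA, and SLA-DRB1 stands at 0.99 in P1 and -0.56 in P4, where SLA-DRA is at 0.44 and near 0.

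The partners of a pair matched to different degrees. As a description over 8 arrays that share scaling and sows, Pearson r was 0.94 for the DM pair, 0.87 for the DQ pair, 0.64 for the DR pair and -0.13 for the DO pair. SLA-DRA followed SLA-DQA1 (r = 0.91) and SLA-DMB (r = 0.88) more closely than its own partner SLA-DRB1. The alpha deviation minus the beta deviation of DR ranged from -0.56 in pregnant replicate 1 to 0.59 in non-pregnant replicate 1, with an SD of 0.42 over the 8 sows. For DQ and DM that SD was 0.20 and 0.17, and for DO it was 0.81, with 1.12 in pregnant replicate 2 and -1.07 in non-pregnant replicate 2. Pregnant replicate 4 had a DR difference of 0.56 and non-pregnant replicate 4 one of -0.48, so the difference did not separate the groups. SLA-DOA correlated with the classical chains at r between -0.33 and 0.22. Without non-pregnant replicate 1 this became -0.78 to -0.69, and without pregnant replicate 2 it became -0.23 to 0.49.

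The median SD over the 8 arrays was 0.43 for the 21 classical probes tested (0.34 to 0.57), 0.46 for the 8 non-classical probes (0.37 to 0.73) and 0.44 for the 2 of CD74, against 0.45 over all probes tested. The classical median was 0.937 times the non-classical one. This order turned under other processing: the ratio was 1.01 with scaling on the median, 1.04 within slide 1, 1.10 with plain background subtraction and 1.53 with normexp. The last 2 settings add an offset of 50, which shrinks log2 differences of dim probes such as those of SLA-DOB. The normexp fit was also uneven between arrays, with first percentiles of 55.8 to 949. Within groups, the median residual SD was 0.46 for classical and 0.49 for non-classical probes, and 0.45 over all probes tested.

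By gene, the spread was lowest at SLA-DQA1 and SLA-DMA and highest at SLA-DOB. The median SD over the 8 arrays was 0.39 for SLA-DQA1, 0.39 for SLA-DMA, 0.43 for SLA-DRA, 0.44 for SLA-DQB1, 0.46 for SLA-DOA, 0.48 for SLA-DMB, 0.54 for SLA-DRB1 and 0.63 for SLA-DOB. SLA-DRB1 had the highest median SD of the classical chains only with pregnant replicate 1: without it, the median was 0.39, below the 0.42 of SLA-DRA, and its untested probe, which lacks that array, had an SD of 0.37. The widest single classical probe was A_72_P561324 of SLA-DRA, at 0.57. With all 8 arrays, 61.6% to 64.9% of all probes tested had a smaller SD than the 3 tested SLA-DRB1 probes. Without non-pregnant replicate 4, the median of SLA-DOB was 0.54 and that of SLA-DRB1 0.55. For SLA-DOB that share with all arrays was 62.4% and 80.1%, and for SLA-DQA1 30.6% to 48.7%. The levels of SLA-DOB were dim, between -2.68 and 0.25 over its probes and arrays, and between -2.68 and -0.67 at its widest probe, A_72_P440006. With plain background subtraction, the SE of the log2 fold change at that probe was 0.20, against 0.48. These SEs are not a like measure: that setting adds an offset of 50 to every spot. An added constant shrinks log2 differences of dim spots, and the medians before it were only 28 to 45. Whether dim signal widened the SLA-DOB spread was not tested. No test was made of the differences in spread between genes, because probes of 1 gene are not replicates.

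**Figure D5:**
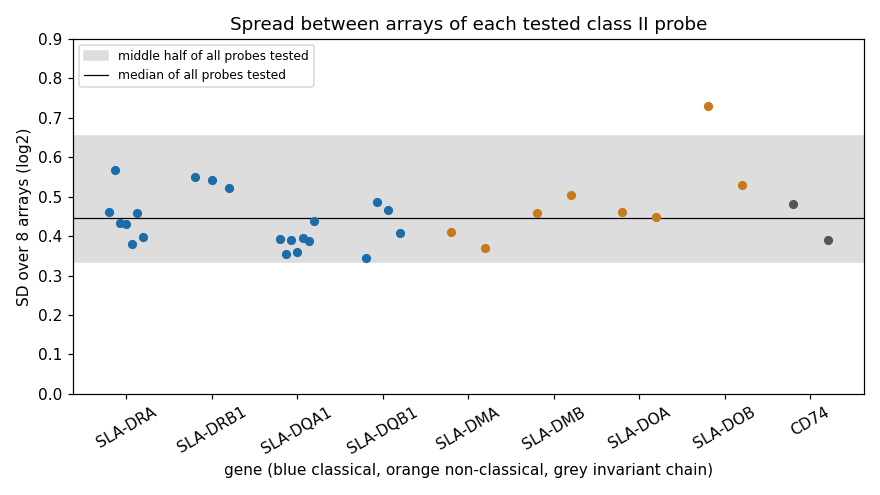
Each point is the SD of 1 tested probe over the 8 arrays, on the log2 scale, by gene. The line is the median of all probes tested (0.45) and the band their quartiles (0.33 to 0.65), and 1 SLA-DOB probe at 0.73 lies above the band.

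Genes that act with class II molecules were described from lists, each gene by its brightest tested probe, in a fit over 1817 genes in which limma called 0% and 55.7% had a negative log2 fold change. Of the transcription factors of class II genes, 2 of 12 listed genes were measured: SPI1, a factor of myeloid and B cells, at a log2 fold change of 0.25, and NFYB, a subunit of the factor that binds the Y box, at -0.18. CIITA, the master regulator of class II transcription, and RFX5 had no probe with that symbol and were not analysed here. On the interferon gamma route that induces CIITA, 6 of 7 genes were measured, 5 with a positive and 1 with a negative value (median 0.051). They include the receptor chains IFNGR1 (0.32) and IFNGR2 (0.11) and the transcription factor IRF1 (0.062), and the negative gene was the kinase JAK1 (-0.18). With normexp the median of this list was 0.73, and without non-pregnant replicate 2 it was -0.18. In both lists limma called 0 genes, and 0 had an unadjusted p under 0.05, where 2.42% of all genes did.

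For uptake and processing of antigen, 9 of 15 genes were measured, 4 positive and 5 negative (median -0.022), which turned to a median of 0.66 with normexp and 0.17 without pregnant replicate 2. The reductase IFI30, which opens disulfide bonds of antigens in the endosome, had a log2 fold change of -0.25, the cathepsins CTSB and CTSZ 0.21 and 0.18, and the Fc receptor FCGR1A 0.16. Among proteins that turn over or accompany class II molecules, 3 of 9 were measured: the tetraspanins CD81 (-0.15) and CD82 (0.13, or -0.17 without pregnant replicate 2) and the clathrin heavy chain CLTC (0.11). Of the genes listed for contact with T cells, 10 of 13 were measured, 4 positive and 6 negative (median -0.15, or 0.15 with normexp). CTLA4, an inhibitory receptor of T cells, had the smallest unadjusted p (0.045) with a log2 fold change of -0.50 (limma adjusted p = 0.999). The co-stimulator ICOS stood at -0.45, the class II co-receptor CD4 at -0.43 and CD80 at -0.18. Without pregnant replicate 2 these were -0.27, -0.17 and 0.016. Of the class I and peptide loading genes, 4 were positive and 5 negative (median -0.027), but the median was 0.81 with normexp. They include SLA-7 at 0.31, SLA-3 at -0.27 (0.047 without non-pregnant replicate 4), CALR at 0.17 and TAP1 at 0.16. In these lists limma called 0 genes.

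Markers of the blood cells that carry class II molecules were read beside these values. Of 19 B cell markers listed, 2 were measured, and limma called neither: CD79A of the B cell receptor at -0.34 and CD72 at -0.25. Their median of -0.29 turned to 0.20 with normexp. MS4A1, CD79B and PAX5 had no probe with that symbol and were not analysed here. The mean deviation of these 2 markers ran from -0.40 to 0.30 in pregnant and from -0.34 to 0.61 in non-pregnant sows, highest in non-pregnant replicate 1. It correlated with SLA-DRA at r = 0.87 over the 8 arrays (0.88 without pregnant replicate 2) and with CD74 at r = 0.38. The median r of the brightest SLA-DRA probe with 1808 other genes, each by 1 probe, was 0.34. That is not a like measure, since 0.87 is between averages of 2 markers and of 7 SLA-DRA probes. The part of B cell number in the class II values was not tested.

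Monocyte and macrophage markers ran from -0.018 to 0.34 in pregnant and from -0.44 to 0.10 in non-pregnant sows, with 8 of 10 measured genes positive, among them LYZ (0.65), CD163 (0.64), TLR4 (0.43) and TLR2 (0.32). Dendritic cell markers, 5 of 15 measured, ran from -0.12 to 0.42 and from -0.75 to 0.26, with CD209 at 1.20, XCR1 at 0.60, TLR9 at 0.16 and TLR7 at -0.12. Without pregnant replicate 2 these were 0.67, 0.047, 0.40 and 0.25, and the list's median of 0.16 turned to -0.23 with normexp. T cell markers were negative in 9 of 9 measured genes, with CD8A at -0.56, CD3D at -0.60 and LCK at -0.42, and ran from -0.55 to 0.094 in pregnant and from 0.023 to 0.28 in non-pregnant sows. Their median of -0.28 turned to 0.37 with normexp. Without pregnant replicate 2, 7 of 9 were negative with a median of -0.20, and CD3D was at -0.39. The correlation with SLA-DRA was 0.72 for the T cell list, 0.28 for the monocyte list and -0.73 for the dendritic cell list, and 0.62, 0.43 and -0.65 without pregnant replicate 2. With CD74 the same lists had r of 0.77, 0.21 and -0.41, which became 0.10, 0.76 and -0.053 without that sow. Limma called 0 genes of these lists, and LYZ, CD8A and CD3D had an unadjusted p under 0.05. Their part in the class II values was not tested either.

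The other blood cell lists also held no gene called by limma. NK and cytotoxic markers were negative in 6 of 6 measured genes (median -0.43, or 0.064 with normexp), with GZMB at -0.92, GZMH at -0.71, CCL5 at -0.57 and KLRK1 at -0.29. Neutrophil markers were positive in 5 of 6 (median 0.30), with NPG4 at 0.98, PMAP-36 at 0.77, LTF at 0.40 and MMP9 at -1.09. Without pregnant replicate 2, NPG4 was at 0.37 and PMAP-36 at 0.29, with 3 of 6 positive. Their mean deviation reached 0.90 in pregnant replicate 2, the sow lowest for most class II probes. Platelet markers were negative in 5 of 6 (median -0.22, or 0.34 with normexp), with SELP at -0.53, ITGA2B at -0.32, PPBP at -0.26 (0.10 without non-pregnant replicate 1) and GP9 at -0.18. Of the erythroid markers, 3 of 12 were measured, EPOR at 0.22, KLF1 at -0.23 and the embryonic globin HBE1 at -0.22. Without pregnant replicate 2 these were 0.0075, -0.67 and -0.99, and without pregnant replicate 1 all 3 were positive. The list's mean deviation ran from -1.01 in pregnant replicate 1 to 1.39 in pregnant replicate 2.

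The genes whose values over the 8 arrays were most like those of SLA-DRA, among 1808 genes and by Pearson r, were SUCLG1 (0.991), UQCC (0.982), PRPF3 (0.962), UBE2J1 (0.961) and INHBA (0.958). Those most like CD74 were FABP6 (0.972), KDM2A (0.969), PPP1CA (0.961), SSR1 (0.956) and GTF2H4 (0.956). Without pregnant replicate 2, SUCLG1 remained at r = 0.993, rank 2 of the 1808, while SSR1 had r = 0.825, rank 44. These are the highest of many correlations over 8 arrays, given as a description.

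The precision of all member comparisons is limited by 4 arrays a group. The 95% interval of a member reached 0.73 on the log2 scale to either side at the median (0.62 to 1.07), a factor of 1.66. The fitted folds lay between 0.775 and 1.08, and their upper bounds between 1.27 and 2.27.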

How the data were processed

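Every array came as a scanner output file that the authors deposited, and the file headers name Feature Extraction version 10.7.3.1 (the submitters' processing notes give 10.7). The processed signal is an intensity after background subtraction, with spatial detrending among the listed statistics, per the file headers. A second table that the authors deposited holds log2 values, which tracked each array's own log2 signal in the same direction (lowest r 0.999), all columns with a median of 5.03. Its normalization and centring are not stated by the labels or the table, and it served as an alternative. Normexp and plain background subtraction used median spot and background signals, and both added an offset of 50 before the log. Control and outlier spots were left out, spots of a probe were averaged on the log2 scale, and the array's 75th percentile was subtracted. Probes with a spot left out on some array (215) were dropped, and those well above background on all 4 arrays of a group were tested (26480, 60.7%) with limma 3.58.1 in R 4.3.3 (lmFit and eBayes, two-sided, Benjamini-Hochberg threshold 0.05). Of 5779 RefSeq probes, 5461 matched 1 symbol. Named genes are all members, up to 4 genes of smallest unadjusted p per list, and the 5 genes most like SLA-DRA and CD74. Members and lists were chosen with earlier results of these data known. Some listed genes are not reported here and were left out of their lists. The labels do not say how the sows were housed or sampled beyond 1 blood sample each, so p-values measure the spread between sows and arrays together. Alternatives covered scaling, background correction, filters, slide, replicate number, variance model, the deposited table and each array left out. Plain background subtraction, the slide by group term, the probe fitted on 7 arrays, and leaving out arrays for list genes and for the spread by gene were added after seeing the data. The script was tested on simulated data, with 200 changed probes among 26480 and values drawn independently from each probe's residual SD. There limma recovered 4.41% of the 2-fold, 57.6% of the 4-fold and 89.4% of the 8-fold changes. A call of 0 probes therefore leaves room for changes of 2-fold.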

Additional observations from a re-analysis of the deposited data

Results flagged for a closer look

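Of 63 sets of 4 arrays (each member probe in each group), 2 held a sow whose gap to the nearest other sow took up more of the group's range than Dixon's critical value, where chance gives about 1 in 20. At the SLA-DOA probe A_72_P513855, non-pregnant replicate 1 lay at 2.46, and its gap was 0.860 of the non-pregnant range. At the SLA-DRA probe A_72_P640825, pregnant replicate 1 lay at 7.14, and its gap was 0.865 of the pregnant range. Leaving out either sow called 0 members.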

How the results depend on the processing

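Limma called 0 probes and 0 members under every alternative run. Normexp background correction turned the sign of the log2 fold change at the brightest probe of all 9 genes: CD74 0.68, SLA-DMA 0.67, SLA-DMB 0.73, SLA-DOA 0.35, SLA-DOB -0.20, SLA-DQA1 0.62, SLA-DQB1 0.60, SLA-DRA 0.61 and SLA-DRB1 0.78. It moved the median of all probes tested from -0.043 to -0.20. Its fit left the arrays with a first percentile of 55.8 to 949 intensity units. The medians after it were 97.8, 124.9, 96.4 and 847 in pregnant replicates 1 to 4. In non-pregnant replicates 1 to 4 they were 889, 537, 184.5 and 965. After subtraction alone the medians lay between 28 and 45. Plain subtraction with an offset of 50, added after seeing the normexp fit, gave 29 of 31 negative members as before. Within slide 1, CD74 was 0.32, SLA-DMB 0.13 and SLA-DRB1 0.58, and within slide 2 SLA-DOA was 0.52. With 1 array left out, the range was -0.39 to 0.17 for CD74, -0.41 to 0.0031 for SLA-DMA, -0.33 to 0.043 for SLA-DMB, -0.31 to 0.14 for SLA-DOA, -0.14 to 0.37 for SLA-DOB, -0.43 to 0.083 for SLA-DRB1, -0.49 to -0.076 for SLA-DRA, -0.46 to -0.13 for SLA-DQA1 and -0.45 to -0.15 for SLA-DQB1. The median SD of classical probes was 0.53 with scaling on the median, 0.84 with normexp, and 0.36 to 0.47 with an array left out. The classical over non-classical ratio was 1.53 with normexp and 1.10 with plain subtraction, both with the offset, which shrinks log2 differences of dim probes. The cause was not tested.

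Same-numbered sows did not all deviate together (r of 0.22, 0.48, 0.43 and -0.12), and pregnant replicates 1 and 4 correlated best with non-pregnant replicates 4 and 1 (0.40 and 0.39), so the numbers were not taken as pairs. With the replicate block limma called 0 probes and 0 members, and probes of unadjusted p under 0.05 went from 607 to 796. All members were well above background, yet their direction turned with normexp, whose fit left the arrays with very unequal medians. Whether that uneven fit turned the signs was not tested. With plain background subtraction 29 of 31 stayed negative.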
